A study of Mus musculus with 4 samples.

Results

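The genes described here encode the proteins that platelets store in their alpha granules or carry as surface glycoproteins. They are the granule chemokines Pf4 and Ppbp, the adhesive ligand gene Vwf, the 4 genes of the GPIb-IX-V receptor (Gp1ba, Gp1bb, Gp9 and Gp5), the collagen receptor gene Gp6, the podoplanin receptor gene Clec1b and the granule membrane receptor gene Treml1. They were taken by symbol, and all 10 were found among the 20207 genes of the deposited table. Their values were compared between wild-type and Brpf1-null LSK cells of mouse embryos. LSK cells are lineage-negative, Sca-1-positive, Kit-positive cells, the fraction that holds hematopoietic stem cells and multipotent progenitors, and here they were sorted from fetal liver at E14.5. Brpf1 encodes a chromatin reader that joins histone acetyltransferase complexes. The labels name the groups wildtype and Brpf1-null. For the allele, any Cre driver and the strain nothing is given in the sources used here.

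Each sample was a pool of LSK cells from 4 embryos, about 10000 cells, and oligo-dT-primed libraries of total RNA were sequenced. By the labels there were 2 pairs, each with 1 sample per genotype, sequenced at 2 companies. No value differed between the 2 deposited tables (0 of 20207 genes in either genotype), so the data amount to 1 library per genotype (n = 1). Which pair of samples these values come from could not be told. No difference therefore has a replicate check, and p-values were not computed. The spacing of low values gave library sizes of about 23609234 (wild-type) and 22182150 (Brpf1-null) reads. Brackets after a fold hold the 95% Clopper-Pearson interval from the read estimates, a measure of counting error that says nothing of variation among embryos or pools. Reads without molecular identifiers are not independent molecules, so the interval can be too narrow. Levels are RPKM, reads scaled by transcript length and by library size. Changes are log2((Brpf1-null RPKM + 1)/(wild-type RPKM + 1)), so a negative value means lower in the Brpf1-null library and low genes are pulled towards 0. Brpf1 had 2.59 RPKM in wild-type and 2.15 RPKM in Brpf1-null cells (1.20-fold lower, 1.01 to 1.44), and a whole-gene value cannot show the loss of an exon. The genes of the sort were present in both libraries: Kit was at 25.6 and 21.3 RPKM and Ly6a, which encodes Sca-1, at 10.6 and 9.51 RPKM.

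Platelets are shed by megakaryocytes, which load alpha granules with chemokines, adhesive proteins and growth factors. The GPIb-IX-V complex tethers platelets to von Willebrand factor at a vessel wound, GPVI then binds collagen, and CLEC-2 binds podoplanin. GPVI and CLEC-2 both signal through the kinase SYK. The promoters of many megakaryocyte genes are known to carry sites for GATA and ETS family factors. Some of these genes are also transcribed at a low level in multipotent cells that are primed towards the megakaryocyte lineage.

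The value in the Brpf1-null library was the lower one for 10 of 10 genes, where 48.7% of all genes above 0 in at least 1 library were lower. The largest differences were those of the chemokine genes Ppbp and Pf4 and of the receptor gene Clec1b, while Gp9 differed little. Over all 10 genes the summed level was 66.6 RPKM in wild-type and 21.4 RPKM in Brpf1-null cells, 3.11-fold lower. With the pseudocount, 4 of the 10 genes were at least 1.5-fold lower and 0 were higher by that much. The background of at least 1.5-fold lower was 9.42% of the 9380 genes averaging 1 RPKM or more, and 7.59% of the 14228 genes above 0 in at least 1 library. The median log2 change of the 10 genes was −0.40, and that of the genes above 0 was 0.01. Without the pseudocount, 7 of the 8 genes with a value above 0 in both libraries were at least 1.5-fold lower, against 18.7% of all such genes. The counting interval of the fold lay wholly on the lower side for 6 of these 8 genes, against 31.1% of all genes above 0 in both libraries with a read estimate. In bulk samples, fewer cells of a type and less RNA per cell cannot be told apart.

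**Figure D1:**
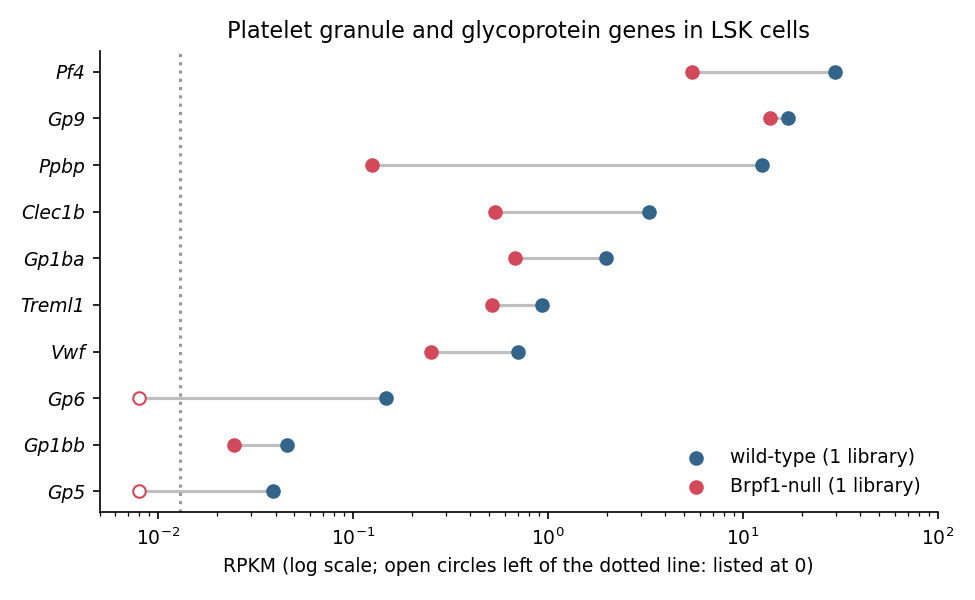
RPKM of each of the 10 genes (log axis) in the wild-type library (blue) and the Brpf1-null library (red), 1 library per genotype, so there are no error bars. The Brpf1-null point lies left of the wild-type point in all 10 rows; Gp5 and Gp6 are listed at 0 in the Brpf1-null library and drawn as open circles.

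Transcripts of these genes covered a wide range of levels in wild-type LSK cells. Pf4, Gp9 and Ppbp were above 10 RPKM, Clec1b and Gp1ba lay between 1 and 10 RPKM, and the other 5 genes were under 1 RPKM. A mean of 1 RPKM or more in these libraries was reached by the first 5 of these genes, and the other 5 stay outside every count over filtered genes. Ppbp, Clec1b and Gp1ba reached that mean through their wild-type value, as each was under 1 RPKM in the Brpf1-null library. The make-up of the summed level also differed. Pf4 and Ppbp together made 63.7% of it in the wild-type library and 26.3% in the Brpf1-null library, while Gp9 alone made 25.6% and 64.3%.

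The 5 genes averaging 1 RPKM or more have RefSeq promoter entries, printed here because these genes set the values below. Each run is the 250 bases before the annotated start, 5′ to 3′ on the gene's strand, in the GRCm38.p6 build, which is not the mm9 build of the deposited values. The positions are chr5:90772185-90772434 for Pf4, chr5:90768268-90768517 for Ppbp, chr6:129397047-129397296 for Clec1b, chr11:70638872-70639121 for Gp1ba and chr6:87777820-87778069 for Gp9, all on the plus strand. Capitals mark matches on either strand to the GATA letters AGATAA or AGATAG or TGATAA or TGATAG, or to the ETS letters CAGGAA or CCGGAA or AGGAAG.
Pf4: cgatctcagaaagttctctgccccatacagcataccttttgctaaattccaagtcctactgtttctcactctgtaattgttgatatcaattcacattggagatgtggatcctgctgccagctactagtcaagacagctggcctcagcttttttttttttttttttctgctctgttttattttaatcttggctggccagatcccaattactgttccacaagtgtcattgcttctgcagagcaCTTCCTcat
Ppbp: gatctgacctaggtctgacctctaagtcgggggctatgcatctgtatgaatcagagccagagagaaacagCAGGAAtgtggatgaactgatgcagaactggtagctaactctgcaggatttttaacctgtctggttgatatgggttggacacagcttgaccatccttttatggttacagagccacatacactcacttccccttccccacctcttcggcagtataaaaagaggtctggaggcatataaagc
Clec1b: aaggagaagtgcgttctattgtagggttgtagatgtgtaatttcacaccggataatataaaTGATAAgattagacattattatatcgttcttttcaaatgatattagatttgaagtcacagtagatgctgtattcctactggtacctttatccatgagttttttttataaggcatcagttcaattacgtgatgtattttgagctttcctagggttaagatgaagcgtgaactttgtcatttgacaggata
Gp1ba: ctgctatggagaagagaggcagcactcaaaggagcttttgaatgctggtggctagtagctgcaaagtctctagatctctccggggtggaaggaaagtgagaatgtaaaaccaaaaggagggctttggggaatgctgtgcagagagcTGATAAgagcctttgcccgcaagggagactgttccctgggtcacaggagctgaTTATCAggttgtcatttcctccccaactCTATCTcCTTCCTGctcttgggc
Gp9: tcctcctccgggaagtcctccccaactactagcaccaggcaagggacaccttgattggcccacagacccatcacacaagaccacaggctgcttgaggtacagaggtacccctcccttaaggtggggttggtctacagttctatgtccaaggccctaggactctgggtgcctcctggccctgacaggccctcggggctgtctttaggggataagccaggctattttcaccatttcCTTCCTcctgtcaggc
The Pf4 and Gp9 runs each hold an ETS match close to the start, read on the opposite strand as CTTCCT, 9 and 16 bases before it. Ppbp holds a single ETS match, 180 bases before the start, and no GATA match. Gp1ba holds 3 GATA matches and, close after the last of them, overlapping CAGGAA and AGGAAG letters that count as 1 ETS place. Clec1b holds a GATA match 189 bases before the start. The search also covered the 50 bases after the start, which are not printed, and found a GATA match there in Pf4 and in Clec1b and a second ETS match in Pf4.

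Entries were matched for 9 of the 10 genes; the tenth is Vwf. Over the whole 300-base windows, 6 of the 9 promoters held GATA letters and 7 of the 9 held ETS letters, with 4 holding both and 0 holding neither. Among all 32851 promoters of that length in the table, 29.8% held GATA letters and 56.1% held ETS letters. The genes with the largest differences did not share 1 make-up: Ppbp had ETS letters only, Clec1b GATA letters only, and Pf4 and Gp1ba both. Gp9, which differed least of the 5 genes averaging 1 RPKM or more, had ETS letters only, as Ppbp did. A match is a description of letters and not a measured binding site.

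The alpha-granule chemokine genes carried most of the difference. Pf4 (platelet factor 4, CXCL4), a heparin-binding chemokine, had 29.8 RPKM in wild-type and 5.51 RPKM in Brpf1-null cells. This is 5.42-fold lower (4.198 to 7.04), from about 414 and 72 reads. Ppbp (pro-platelet basic protein, CXCL7), the precursor of the neutrophil attractant NAP-2, was at 12.6 RPKM and 0.125 RPKM. Its fold was 101 (34.2 to 492), from about 322 and 3 reads. On 3 Brpf1-null reads the size of that fold is known only within this wide interval, but its lower bound lies above the upper bound of the Pf4 fold. That comparison describes these libraries and is no replicate check. By log2 change with the pseudocount, Ppbp had the 4th lowest value of the 9380 filtered genes and Pf4 the 26th lowest. As Ppbp passed the filter through its wild-type value, its rank is not independent of the filter.

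Pf4 and Ppbp are neighbours on chromosome 5. Ppbp runs from 90768518 to 90770063 and Pf4 from 90772435 to 90773383 in GRCm38, both on the plus strand, with 2371 bases between them. Their levels were not in 1 proportion in the 2 libraries. The Pf4 level was 2.37 times the Ppbp level in the wild-type library and 44.1 times in the Brpf1-null library. Other CXC chemokine genes were near the lower limit of the table. None of 12 such genes (0 of 12) reached a mean of 1 RPKM, 5 were listed at 0 in both libraries, and the 12 summed to 0.866 and 0.691 RPKM.

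**Figure D2:**
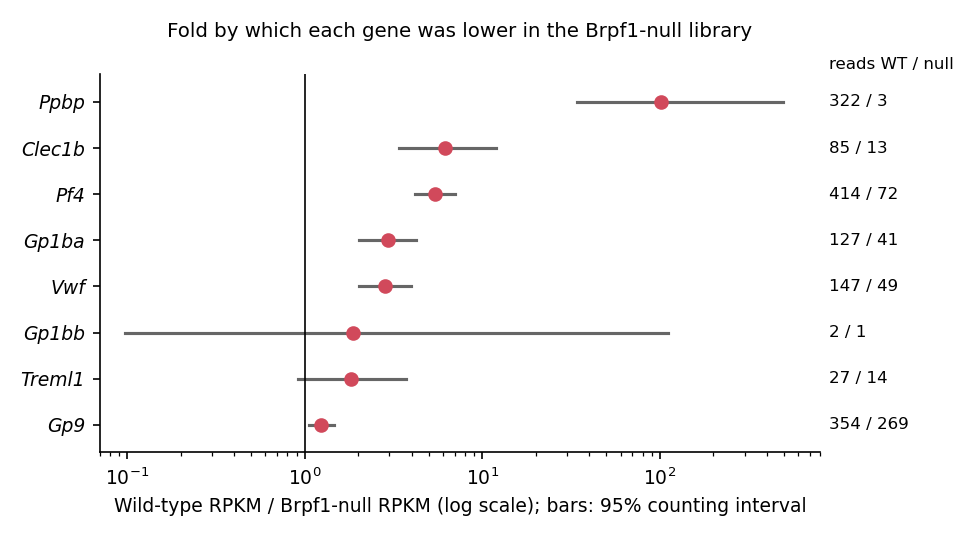
Wild-type RPKM divided by Brpf1-null RPKM (log axis) for the 8 genes above 0 in both libraries; bars are 95% counting intervals from the estimated reads given at the right. The interval lies above 1 for 6 genes and includes 1 for Treml1 and Gp1bb, and that of Ppbp starts at 34.2.

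The subunits of the GPIb-IX-V receptor differed among themselves. Gp1ba, the subunit that binds von Willebrand factor, had 1.98 RPKM in wild-type and 0.676 RPKM in Brpf1-null cells, 2.93-fold lower (2.03 to 4.25). Its read estimates were about 127 and 41. Gp9, a small leucine-rich subunit that the complex needs to reach the surface, was at 17.0 RPKM and 13.8 RPKM, 1.24-fold lower (1.05 to 1.45), from about 354 and 269 reads. The interval of the Gp9 fold ended below that of Gp1ba, which describes these libraries and is no replicate check. Gp9 was the only one of the 5 genes averaging 1 RPKM or more that stayed within 1.5-fold.

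The other 2 subunits were barely sampled. Gp1bb, which is disulfide-linked to the GPIb alpha chain, had 0.0458 RPKM in wild-type and 0.0244 RPKM in Brpf1-null cells, about 2 reads and 1 read. A fold of 1.88 on so few reads has an interval from 0.0978 to 111, so no difference was detectable at this depth. Gp5, the subunit that thrombin cleaves, had 0.0386 RPKM in wild-type cells, about 2 reads, and was listed at 0 in Brpf1-null cells. No fold is given for it. On the per-length RPKM scale the level of Gp9 was 8.59 times that of Gp1ba in the wild-type library, and 20.4 times that of Gp1ba in the Brpf1-null library.

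An overlap bears on the Gp1bb value. Gp1bb lies on chromosome 16 and overlaps the 3′ end of Sept5 and the coding gene Gm49601, both on the same strand. Reads from these genes could be assigned to any of them, and how the authors treated such reads is not given in the sources used here. Sept5, whose symbol is stored in date form in the deposited table, had 0.0398 RPKM in wild-type cells and was listed at 0 in the Brpf1-null library. Clec1b overlaps Clec9a on the same strand, and Clec9a was listed at 0 in both libraries. The other 8 genes overlap no other protein-coding gene in GENCODE M21.

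Of the signalling receptors, Clec1b had enough reads to place its fold on 1 side and Treml1 did not, while for Gp6 this depended on the transcript length. Clec1b (CLEC-2) had 3.30 RPKM in wild-type and 0.538 RPKM in Brpf1-null cells. This is 6.14-fold lower (3.41 to 12.01), from about 85 and 13 reads, and the 128th lowest log2 change of the 9380 filtered genes. As Clec1b passed the filter through its wild-type value, that rank is not independent of the filter. With the shortest annotated transcript the same levels would stand for 35 and 5 reads, and the interval would run from 2.57 to 21.5. At the length used, the Clec1b estimates lay 0.0004 and 0.002 reads from whole numbers. Gp6 (GPVI) had 0.147 RPKM in wild-type cells and was listed at 0 in Brpf1-null cells. With 0 in 1 library no fold is given. At the transcript length used, the wild-type value stands for about 20 reads and the interval starts at 4.64-fold lower. At the shortest annotated length it stands for only 3 reads, so the side was not settled. Treml1 (TLT-1), a receptor that reaches the platelet surface from the alpha-granule membrane, was at 0.936 and 0.516 RPKM. Its fold of 1.81 lower had an interval from 0.917 to 3.74, from about 27 and 14 reads, which includes no difference.

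Vwf, the granule ligand of GPIb, had 0.705 RPKM in wild-type and 0.25 RPKM in Brpf1-null cells. It was 2.82-fold lower (2.03 to 3.98), and with the long transcript used these low levels rest on about 147 and 49 reads. That depends on the length: the shortest annotated transcript would give 6 and 2 reads and an interval from 0.504 to 28.6, which includes no difference. At the length used, both estimates lay close to whole reads, 0.004 and 0.011 reads away. The same distance was not computed for the shortest length. The log2 change of Vwf with the pseudocount was −0.45, inside the 1.5-fold limits, which shows how far the pseudocount pulls in a gene under 1 RPKM. Endothelial cells also make von Willebrand factor. Of 18 endothelial marker genes, 8 had a mean of at least 1 RPKM, and 2 of these were lower, 1 higher and 5 inside the limits, with a median log2 change of −0.22. The markers summed to 161 and 124 RPKM, of which Egfl7 alone had 113.3 and 88.3 RPKM, and 0 of 18 were listed at 0 in both libraries. Of the 4 defining genes, Cdh5 (VE-cadherin) had 0.583 RPKM in wild-type and 0.203 RPKM in Brpf1-null cells, Emcn (endomucin) 12.7 and 5.45 RPKM, Pecam1 8.36 and 8.96 RPKM and Kdr (VEGF receptor) 0.132 and 0.33 RPKM. Among the 10 endothelial markers below the filter, 9 had the lower value in the Brpf1-null library, as Vwf did, and 1, Kdr, the higher one. The counting interval lay wholly on the lower side for 7 of the 10. Of all genes above 0 in at least 1 library, 48.7% had the lower value in the Brpf1-null library. The interval lay wholly on the lower side for 31.1% of all genes above 0 in both libraries with a read estimate. Lyve1 was 25.8-fold lower (7.60 to 242), Clec14a 5.54-fold (2.81 to 12.2) and Stab2 3.24-fold lower (2.11 to 5.22), named after their values were seen. Tie1, the filtered marker that was higher, had 5.37 RPKM in wild-type and 8.70 RPKM in Brpf1-null cells, 1.62-fold higher (1.45 to 1.81). The part of endothelial RNA in the Vwf values was not tested.

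**Figure D3:**
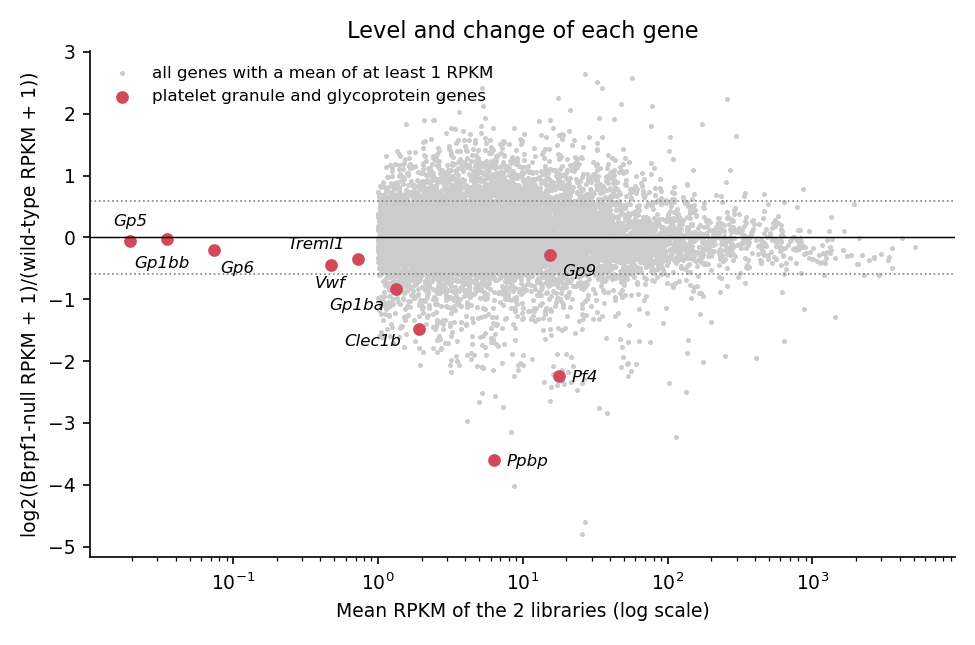
Mean RPKM of the 2 libraries (log axis) against log2((Brpf1-null RPKM + 1)/(wild-type RPKM + 1)) for the 9380 genes averaging 1 RPKM or more (grey) and for the 10 platelet genes (red); dotted lines mark 1.5-fold. Ppbp and Pf4 lie at the lower edge of the cloud at −3.60 and −2.24, Gp9 lies inside it at −0.29, and the 5 genes left of 1 RPKM lie between 0 and −0.45.

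The other genes of megakaryocytes and platelets went both ways. Over 7 lists with 136 genes beside the 10, 107 genes had a mean of at least 1 RPKM. Of these, 17 (15.9%) were lower and 17 (15.9%) higher by 1.5-fold or more in the Brpf1-null library, against 9.42% and 14.1% of all 9380 filtered genes. Their median log2 change was 0.02, and that of all filtered genes was 0.04. Centring each library on its median shifted the median of all filtered genes by −0.11 and the split of all genes past 1.5-fold from 884 lower and 1323 higher to 1204 lower and 961 higher. It moved the count for the 7 lists to 21 lower and 14 higher.

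Megakaryocyte transcription factors had 18 filtered genes, with 5 lower, 1 higher and 12 inside the 1.5-fold limits, and a median of −0.11. Gata1, the zinc finger factor of the erythroid and megakaryocyte lineages, had 16.8 RPKM in wild-type and 6.13 RPKM in Brpf1-null cells, 2.73-fold lower (2.37 to 3.17). Gfi1b, a repressor that both lineages require, had 47.1 and 25.2 RPKM, a 1.87-fold difference (1.73 to 2.02). Mecom and Meis1, which are stem cell factors as well, were 4.14-fold (3.32 to 5.19) and 2.59-fold lower (2.43 to 2.77). Fli1, the ETS factor of the lineage, was at 25.6 RPKM in both libraries (fold 1.00, 0.94 to 1.07), with a log2 change that was 0.11 after removal of the GC trend and −0.11 after median centring. Nfe2, which drives platelet release, was at 53.4 and 42.9 RPKM, 1.24-fold lower (1.17 to 1.32). Its small partners went opposite ways: Mafk was 3.10-fold higher (2.51 to 3.82), while Mafg, named after its value was seen, had a log2 change of −0.74.

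A list of cytokine signalling and megakaryocyte maturation genes included 16 filtered genes, with 2 lower, 5 higher and 9 inside the 1.5-fold limits. Stat5a and Stat5b, signal transducers of cytokine receptors, were 4.95-fold (4.16 to 5.90) and 2.83-fold higher (2.51 to 3.21); these are near-identical neighbours whose reads may be split between them. Gng11, a G protein subunit of platelets, was 2.74-fold lower (2.19 to 3.43) and Sdpr, a caveolar protein, 5.41-fold lower (3.52 to 8.64). Tubb1, the tubulin of the platelet marginal band, had 0.842 RPKM in wild-type and 0.032 RPKM in Brpf1-null cells, about 28 reads and 1 read. With a single Brpf1-null read its ratio of 26.3 has an interval from 4.35 to 1076.

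Other alpha-granule genes had 13 filtered members, with 2 lower, 1 higher and 10 inside the 1.5-fold limits, and a median of −0.33. Mmrn1 (multimerin, a carrier of factor V) was at 7.0 and 2.66 RPKM, 2.63-fold lower (2.29 to 3.04), and Igf1 was 4.91-fold lower (3.71 to 6.64). Srgn (serglycin), the proteoglycan that holds Pf4 and other basic proteins in granules, was at 170.1 and 115.3 RPKM, 1.48-fold lower (1.42 to 1.53), a smaller fold than that of Pf4. Vps16, a vesicle sorting subunit, was 1.57-fold higher (1.44 to 1.71). The dense granule list had 1 lower and 1 higher of 16 filtered genes: Rab38, a small GTPase of lysosome-related organelles, was 4.60-fold lower (3.83 to 5.52) and Unc13d, a priming factor of secretion, 2.21-fold higher (1.99 to 2.47). Hps4 and Ap3b1, which serve the biogenesis of the same organelles, were 1.64-fold (1.40 to 1.92) and 1.55-fold higher (1.41 to 1.71) without the pseudocount and within 1.5-fold with it.

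Other platelet receptors had 18 filtered genes, with 4 lower, 2 higher and 12 inside the 1.5-fold limits. Cd36, a scavenger receptor that binds thrombospondin, was 7.42-fold lower (4.59 to 13.04), F2r, a thrombin receptor, 2.22-fold lower (1.80 to 2.76) and Esam, an adhesion molecule also found on stem and endothelial cells, 2.04-fold lower (1.72 to 2.44). Ptger3, a prostaglandin E2 receptor, was 3.96-fold higher (2.87 to 5.50). The list also holds F2rl2 and F2rl3, genes of the same receptor family as F2r, named after their values were seen. Both lay inside the limits, with log2 changes of −0.34 and −0.26. Whether mouse platelets make the F2r receptor was not tested. The fibrinogen receptor chains were low and went opposite ways. Itga2b (CD41), the marker gene of the megakaryocyte lineage, had 0.234 RPKM in wild-type and 1.01 RPKM in Brpf1-null cells, 4.31-fold higher (2.58 to 7.55), from about 19 and 77 reads. Itgb3 (CD61) was at 0.622 and 0.343 RPKM, 1.82-fold lower (1.25 to 2.67). Itga2b was therefore higher in the library in which each of the 10 platelet genes was lower.

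Signalling genes below GPVI and CLEC-2 went both ways. Of 20 filtered genes, 6 were higher, 3 lower (Lcp2, one of these, lay at the limit with a log2 change of −0.58) and 11 inside the limits, with a median of 0.39, and the background of at least 1.5-fold higher was 14.1%. Plcg2, the phospholipase that GPVI and CLEC-2 signalling converges on, was at 19.5 and 39.2 RPKM, 2.01-fold higher (1.90 to 2.12). The exchange factor Vav1 was 1.80-fold (1.67 to 1.95) and the integrin activator Tln1 1.92-fold higher (1.83 to 2.02), while the kinase Btk was 2.17-fold lower (1.90 to 2.48). Syk, the kinase of both receptors, was at 12.3 and 19.6 RPKM, and Fcer1g, the signalling chain that GPVI needs, at 88.2 and 132.1 RPKM; both were named after their values were seen. These genes serve other blood lineages too. Of the 6 filtered eicosanoid enzyme genes, 0 were lower, 1 was higher and 5 lay within 1.5-fold; Ltc4s, the leukotriene C4 synthase, was 1.84-fold higher (1.16 to 2.92), and Ptgs1, the platelet cyclooxygenase, was at 14.9 and 20.97 RPKM.

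**Figure D4:**
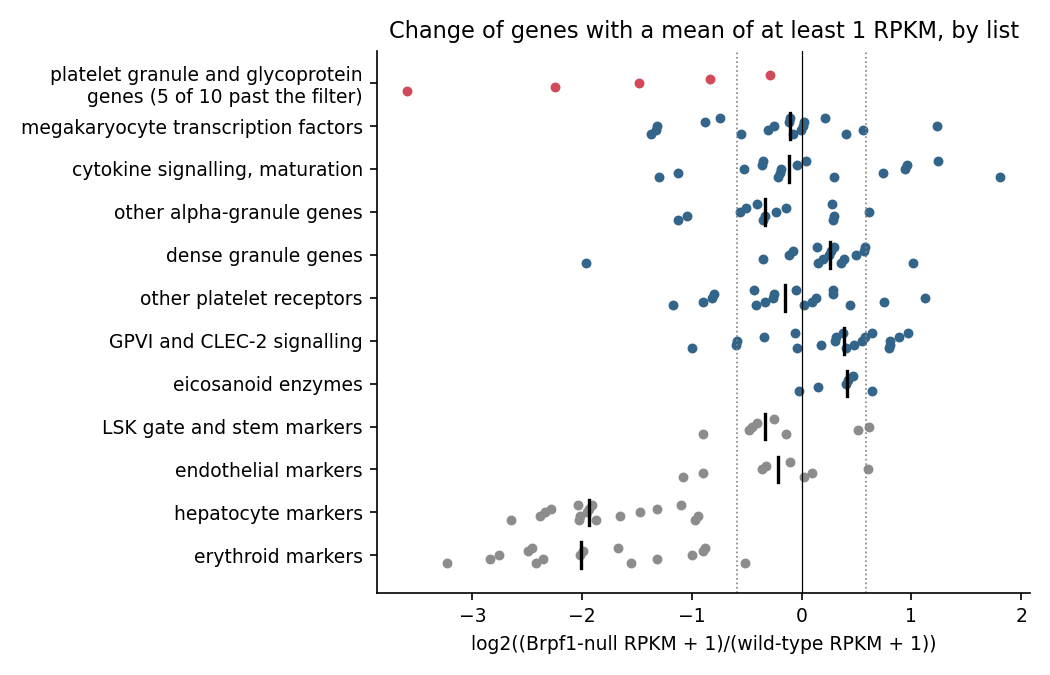
log2((Brpf1-null RPKM + 1)/(wild-type RPKM + 1)) of each gene with a mean of at least 1 RPKM, by list; points are genes, black bars are list medians, dotted lines mark 1.5-fold, and the top row holds the 5 of 10 platelet genes past the filter, with no median. All 5 red points lie below 0, the other platelet and megakaryocyte lists (blue) spread to both sides, and the hepatocyte and erythroid markers (grey) lie at medians of −1.94 and −2.01. Of the red points, Ppbp, Clec1b and Gp1ba passed the filter through their wild-type value, so their place below 0 is not independent of the filter.

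Markers of other cell types differed between the same 2 libraries. Of 17 filtered hepatocyte markers 17 were lower by 1.5-fold or more in Brpf1-null cells, their summed level was 2240 RPKM in wild-type and 587 RPKM in Brpf1-null cells, and 0 of the 18 measured were listed at 0 in both. Of 16 filtered erythroid markers 15 were lower, with sums of 1719 and 426 RPKM over 18 measured genes, of which 0 were at 0 in both. Gata1 stands in both the erythroid and the megakaryocyte list. Of the B-lineage markers 11 of 11 were lower, with sums of 297 and 87.3 RPKM. Macrophage markers had 5 lower and 2 higher of 10, and their sum was higher in the Brpf1-null library, at 85.4 and 98.8 RPKM. Mast cell, basophil and eosinophil markers had 2 lower and 2 higher of 4, with sums of 26.5 and 14.3 RPKM. The list of stem cell and gate markers had 1 lower (Esam) and 1 higher (Cd34) of 8, with a median log2 change of −0.33. The sums over its 9 genes were 296 and 330 RPKM. Cd34 was at 116.8 and 179.3 RPKM, and Flt3, within 1.5-fold with the pseudocount, at 22.9 and 33.1 RPKM. Slamf1, below the filter and named after its value was seen, was at 0.566 and 0.0335 RPKM, about 36 and 2 reads. The folds of the summed hepatocyte markers, 3.82, erythroid markers, 4.04, and B-lineage markers, 3.40, stood above the 3.11 of the 10 platelet genes. Gp9, 1.24-fold lower, made 64.3% of the platelet sum in the Brpf1-null library, and Pf4, Clec1b and Ppbp had larger folds than any of these sums. The part of these cell types in the platelet gene values was not tested.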

How the data were processed

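LSK cell pools of 2 wild-type and 2 Brpf1-null samples were grouped by their titles. Reads were aligned with TopHat to mm9, per the submitters' processing notes; for the annotation, counting and filters nothing is stated in the labels or headers used here. The authors deposited RPKM values in the table of pair 1 and FPKM values in that of pair 2, per the file headers, and both scale reads by gene length and library size. The deposited tables also hold a fold, a ratio with wild-type over Brpf1-null, and its log2, per the file headers; all 12624 ratios equalled the quotient of the 2 values within 0.001, and they were not used further. The values of the 2 tables were identical, so 1 library per genotype was described without a test.

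Genes averaging 1 RPKM or more were kept (9380, with 10827 removed), and a pseudocount of 1 was used. Read numbers were estimated from RPKM, library size and the longest RefSeq-linked GENCODE M21 transcript (98.1% of symbols matched a length, 2303 of them through RefSeq synonyms). The sizes were those at which low values of genes with 1 transcript length fall on whole reads: 61.8% of 421 wild-type and 63.1% of 423 Brpf1-null values lay within 0.1 read, against 28.0% and 26.5% with sizes raised by 5%. The size ratio was refined on 1203 genes under 0.3 RPKM. The steps were tested on simulated data. Python 3.11.15 and scipy 1.17.1 were used.

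The platelet genes and all gene lists were chosen with earlier results of these data known. Named from each other list were the 4 filtered genes with the largest absolute log2 change, plus Gata1, Fli1, Nfe2, Gfi1b, Tubb1, Itga2b, Itgb3 and Brpf1 (1 further gene of this rule is not reported here); the lists of other cell types are given by counts, sums and medians, with single values for the endothelial and gate markers. The alternatives tried were other pseudocounts, filters, median centring, quantile normalization and removal of a GC trend.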

Additional observations from a re-analysis of the deposited data

How the results depend on the processing

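The number of platelet genes at least 1.5-fold lower, 4 of 10, was 7 with a pseudocount of 0.1 and 2 (Pf4 and Ppbp) with a pseudocount of 5. It stayed 4 under quantile normalization or median centring and was 5 with the GC trend removed; the filter does not enter this count. The lower count of all 9380 filtered genes moved too, from 884 (9.42%) to 1163 (12.4%) with a pseudocount of 0.1. That count was 1032 under quantile normalization, 1204 under median centring and 882 with the GC trend removed. The counting interval of the fold lay on the lower side for 5 genes rather than 6, Vwf being lost, with the shortest annotated transcripts, an alternative chosen after seeing the data. At the length used in the main setting, both Vwf estimates lay close to whole reads. The median log2 change of the 10 genes ranged from −1.25 (pseudocount 0.1) to −0.18 (pseudocount 5). No platelet gene changed sign under these alternatives other than Gp1bb, at −0.03, which was 0.01 after quantile normalization. Among the other platelet and megakaryocyte genes, the 17 lower became 9 with a pseudocount of 5 and 10 under a filter of 5 RPKM, and the 17 higher became 10 with a pseudocount of 5. Over all genes, the 884 lower and 1323 higher became 393 and 554 with a pseudocount of 5, and 483 and 793 under a filter of 5 RPKM, where fewer genes were counted. Of 210 list counts under the alternatives, 162 stayed within 1.5 times the main count. No paired analysis was possible because the tables of both pairs hold the same values; for the same reason no replicate could be left out. Depth limits Gp1bb, Gp5, Gp6 and Treml1, and the size of the Ppbp fold.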

Other observations

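The deposited table stored 25 gene symbols in the date form that spreadsheets give to names such as those of septins, so these genes, Sept5 among them, are missed by a search on their symbols.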
